A study of Homo sapiens with 6 samples.

Results

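Respiratory complex I is described here through 44 nuclear genes, 36 for its subunits and 8 for factors that assemble it, out of 60617 genes in the table. The members were named by symbol, and each symbol matched 1 Ensembl identifier of the table. RNA was sequenced from NCI-H1299 cells, a line labelled as lung adenocarcinoma, in 3 control libraries (genotype WT, with Puro in their titles) and 3 libraries with FuHsi knocked down (Sh1 in their titles). The labels spell out neither Puro nor Sh1, name no gene symbol for FuHsi and state no time, and 1 cell line underlies every library. No label says that libraries of a group came from separate cultures, so each p-value covers the variation among these libraries alone, and that variation may be technical. The stated aim was to learn the role of FuHsi in the nucleolus. The knockdown was not checked here against the FuHsi transcript itself, since the labels pair that name with no gene identifier.

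Complex I takes electrons from NADH in the mitochondrial matrix, passes them along iron-sulphur clusters to ubiquinone and pumps protons across the inner membrane. It has a matrix arm, which carries the catalytic core, and a membrane arm, which carries the pumps. Its hydrophobic core is encoded by mitochondrial DNA and all other subunits by nuclear genes, so its parts come from both compartments and must be joined by assembly factors that leave the finished enzyme.

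Library totals ran from 24231515 to 34306849 counts, and each control library was deeper than each knockdown library. Log2 CPM (counts scaled to a common library total after TMM, trimmed mean of M-values, normalization) correlated at 0.990 to 0.992 within groups and at 0.963 to 0.969 between them. Of the marker lists, KRT8, KRT18 and VIM were abundant, whereas EPCAM, CDH1, NKX2-1 and SFTPB were each below 0.5 CPM on average in both groups, so these defining markers were near 0. The summed CPM of epithelial markers was 823.8 to 833.7 in control and 612.9 to 660.3 in knockdown, and that of mesenchymal markers 1456 to 1503 and 940.4 to 993.6. KRT8 and VIM fell, at -0.63 and -0.70, KRT18 was not called at -0.06, and ZEB1, a mesenchymal marker, rose by 0.45. The 4 lung adenocarcinoma markers summed to 0.0918 to 0.450 CPM in control and 0.705 to 1.05 CPM in knockdown, with SFTPC at 0. NAPSA of that list, PTPRC of the leukocyte list and DCN of the fibroblast list rose but were below 1 CPM on average in both groups. The PTPRC and DCN calls were each lost in 4 of 13 alternatives, DESeq2 included. The summed CPM of leukocyte markers was 0.185 to 0.734 in control and 1.18 to 1.49 in knockdown, that of endothelial markers 1.04 to 1.49 and 1.14 to 2.01, and that of fibroblast markers 1.28 to 2.65 and 1.14 to 2.77. The part of any of these markers' cell types in the values that follow was not tested.

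Promoters of 6 members are printed first, because members that moved together or apart can be compared on them. RefSeq promoter windows on GRCh38.p14, from 250 bases before to 50 after the gene start, matched 39 of the 44 members. The stretches shown hold 120 bases before and 30 after the start, 5′ to 3′ on the gene's strand, with matches to 3 searched motifs in capitals. NDUFA8 (chr9:122159750-122159899, minus strand) and NDUFAF4 (chr6:96897862-96898011, minus strand) hold the letters of an NRF1 site near the start, and both fell. These promoters were added after the motif search. All 8 members with the NRF1 letters fell, as did 18 of 31 without them. An ETS match of NDUFAF4 lies farther from its start than the stretch reaches. NDUFA12 (chr12:95003668-95003817, minus strand) holds those of a YY1 site and rose, although of 10 members with the YY1 letters 4 fell and 2 rose. NDUFAF2 (chr5:60945085-60945234, plus strand), a paralogue of NDUFA12, and NDUFA2 (chr5:140647601-140647750, minus strand), which had the largest fall, hold no match. NDUFA13 (chr19:19516105-19516254, plus strand), which had the largest rise, holds the letters of an ETS site.
NDUFA8: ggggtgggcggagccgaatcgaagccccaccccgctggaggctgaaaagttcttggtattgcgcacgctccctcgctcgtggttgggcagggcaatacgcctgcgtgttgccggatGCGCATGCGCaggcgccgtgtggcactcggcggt
NDUFAF4: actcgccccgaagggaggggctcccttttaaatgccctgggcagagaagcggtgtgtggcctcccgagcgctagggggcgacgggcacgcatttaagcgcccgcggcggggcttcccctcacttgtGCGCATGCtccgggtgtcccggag
NDUFA12: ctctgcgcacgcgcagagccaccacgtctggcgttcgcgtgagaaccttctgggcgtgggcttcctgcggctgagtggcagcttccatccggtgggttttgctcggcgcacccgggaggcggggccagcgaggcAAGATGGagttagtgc
NDUFAF2: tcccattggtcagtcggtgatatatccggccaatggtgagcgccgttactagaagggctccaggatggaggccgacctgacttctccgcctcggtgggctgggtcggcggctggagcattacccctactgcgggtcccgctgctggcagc
NDUFA2: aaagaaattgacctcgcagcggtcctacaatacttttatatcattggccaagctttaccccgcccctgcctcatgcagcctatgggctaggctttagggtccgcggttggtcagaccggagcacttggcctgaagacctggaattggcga
NDUFA13: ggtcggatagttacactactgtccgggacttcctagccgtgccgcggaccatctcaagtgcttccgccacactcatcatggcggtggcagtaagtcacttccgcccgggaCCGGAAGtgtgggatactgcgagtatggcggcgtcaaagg

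The comparison of knockdown with control showed lower RNA for most of complex I, by modest amounts. All 44 members passed the filter on low counts. Calls use edgeR's quasi-likelihood test with a threshold of 0.05 on the Benjamini-Hochberg adjusted p. On that basis 30 members fell, which is 68.2% of them, against 30.9% of the 17223 tested genes. Rises numbered 4, or 9.09%, against 30.7% of tested genes, and 10 members were not called. The median log2 fold change was -0.38 over members and 0.03 over all tested genes. In bulk RNA, fewer cells of a type and less RNA per cell cannot be told apart. With scaling by library size alone, which raised the median of all tested genes to 0.185, 25 members fell and 7 rose. The 4 rises became 2 without a filter, 1 with DESeq2, and 2 without any 1 control library, knockdown replicate 1 or knockdown replicate 2.

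The falls were modest in size. They ran from 0.20 to 0.82 on the log2 scale, and 13 of the 30 were at -0.5 or beyond. By edgeR's quasi-likelihood test 0 of 44 members fell 2-fold, against 3.12% of tested genes. The number is also 0 at an unadjusted p under 0.05, which had to be so, since no fall was beyond 0.82. No member reached 2-fold under any of 13 alternative fits, DESeq2 included. The 3 knockdown values lay below all 3 control values for 32 members (72.7%), against 32.3% of tested genes.

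Subunits and the 8 assembly factors among the members had similar shares of falls and similar medians. A further 12 assembly factors, described below, had a median of -0.09, with 6 lower and 1 higher. Of 36 subunits 25 fell (69.4%) and 3 rose, with a median of -0.38. Of 8 assembly factors 5 fell (62.5%) and 1 rose, with a median of -0.39. Over all tested genes 30.9% fell and 30.7% rose, shares that also stand beside the counts by role below. The summed level of the subunits went from 1738 ± 28.0 to 1320 ± 32.1 CPM (mean ± SD, n = 3), or 75.9% of control. That of the assembly factors went from 256.6 ± 2.64 to 192.0 ± 4.29 CPM, or 74.8% of control. The ratio of these sums was 6.78, 6.72 and 6.81 in the control libraries and 6.63, 6.86 and 7.14 in the knockdown libraries, so the groups overlapped. Members are not replicates, and the difference between the classes was not tested.

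**Figure D1:**
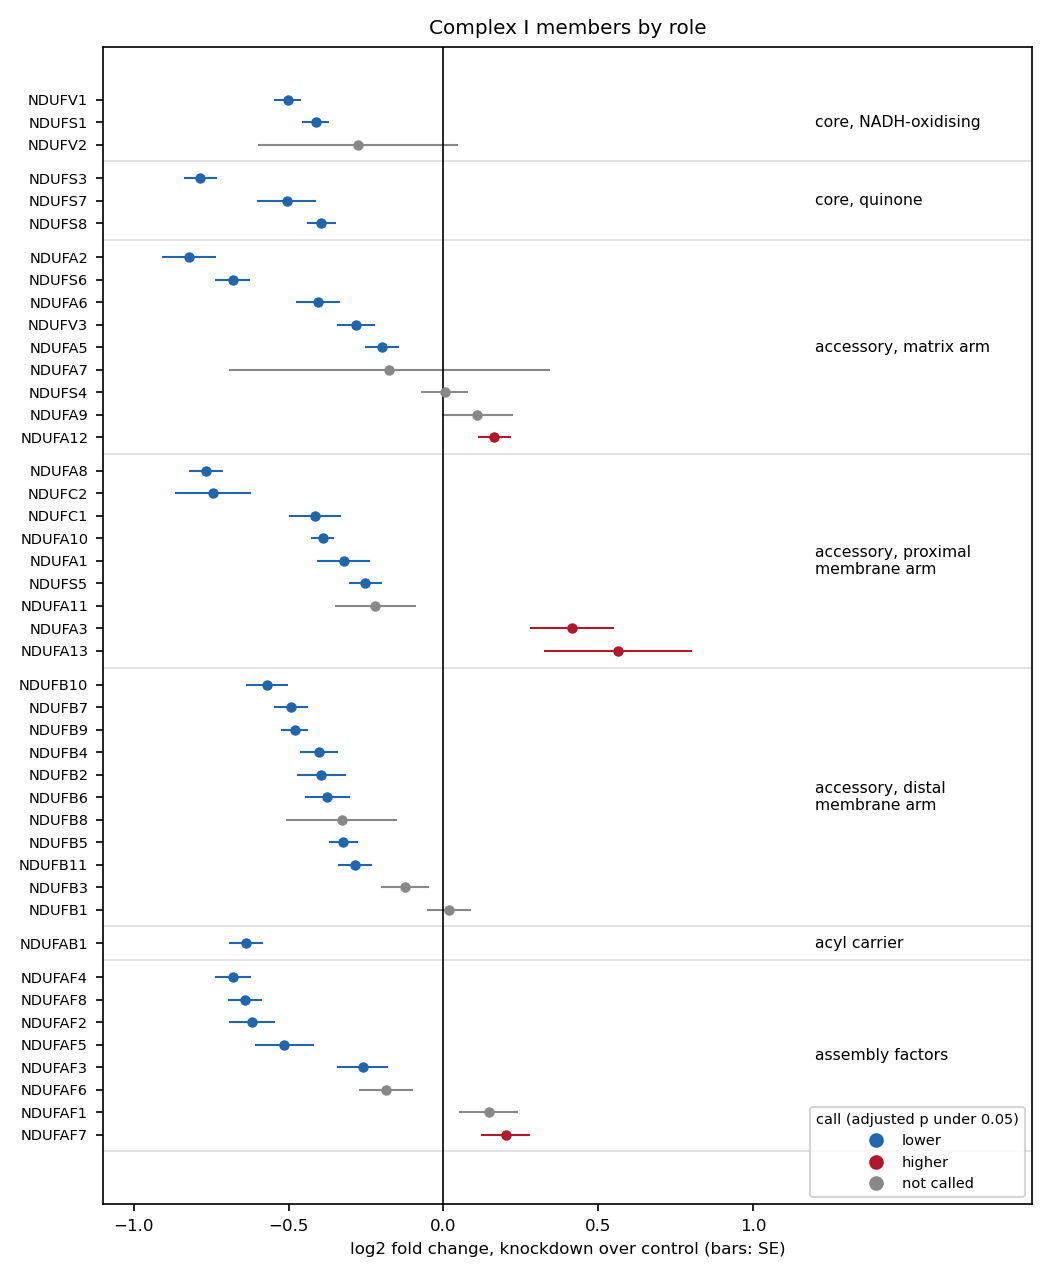
Log2 fold change of each of the 44 members, knockdown over control, with SE bars, grouped by role and coloured by call at an adjusted p under 0.05. Most points lie between -0.82 and -0.20, and the 4 called rises are NDUFA12, NDUFA3, NDUFA13 and NDUFAF7.

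Core subunits carry the flavin, the iron-sulphur clusters and the quinone site. Of the 6 nuclear ones listed, 5 fell and NDUFV2 was not called. NDUFV1, which binds NADH and the flavin, was at 134, 129 and 140 CPM in control and at 91.1, 100.3 and 93.2 CPM in knockdown. Those groups did not overlap, and the log2 fold change was -0.50 ± 0.04 (SE). NDUFS1, the largest iron-sulphur subunit, was at 115, 119 and 122 CPM in control and at 84.7, 87.7 and 95.7 CPM in knockdown, with a log2 fold change of -0.41. Again each knockdown library was below each control library.

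The 3 core subunits of the quinone module all fell. NDUFS3 (ENSG00000213619, GRCh38 chromosome 11, 47565336 to 47584562, plus strand), a scaffold of that module, was at 81.6, 79.0 and 87.5 CPM in control and at 45.3, 48.0 and 50.7 CPM in knockdown. The gap between groups was wide against the spread within them. Its log2 fold change was -0.78 ± 0.05 (SE; adjusted p 5.38e-20, edgeR's quasi-likelihood test). PTPMT1, CELF1 and KBTBD4 overlap 22.4% of its exonic bases. NDUFS7 and NDUFS8 hold the iron-sulphur clusters nearest to the quinone. NDUFS7 was at 16.3, 18.5 and 18.8 CPM in control and at 12.3, 12.7 and 12.8 CPM in knockdown, and NDUFS8 at 81.2, 84.3 and 85.0 CPM and at 61.4, 66.2 and 63.1 CPM. The groups were apart for both, at log2 fold changes of -0.51 and -0.39. Other genes overlap 49.1% of the exonic bases of NDUFS7.

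Of 9 accessory subunits of the matrix arm 5 fell and 1 rose, against 30.9% and 30.7% of all tested genes. NDUFA2 (ENSG00000131495) lies on the minus strand of chromosome 5 from 140638740 to 140647785, and its fall was the largest among the 44 members. It was at 23.2, 23.1 and 25.4 CPM in control and at 13.2, 14.4 and 13.0 CPM in knockdown, which puts the log2 fold change at -0.82 ± 0.09 (SE; adjusted p 1.84e-12, edgeR's quasi-likelihood test). TMCO6 and IK overlap 13.0% of its exonic bases. Its knockdown level was 56.6% of control and the groups lay far apart. NDUFS6, a zinc-binding subunit, was at 66.7, 60.4 and 68.3 CPM in control and at 41.9, 39.9 and 40.1 CPM in knockdown, a log2 fold change of -0.68. NDUFA6, NDUFV3 and NDUFA5 fell by 0.41, 0.28 and 0.20 on the log2 scale. With library size alone NDUFV3 (-0.13) and NDUFA5 (-0.05) lost the call.

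Other subunits of that arm were not called. NDUFS4, which helps to fix the NADH-oxidising module in place, was at 22.9, 25.1 and 24.7 CPM in control and at 25.02, 23.70 and 24.15 CPM in knockdown. The groups overlapped, and the log2 fold change was 0.00 ± 0.08 (SE). NDUFA9, near the quinone site, was at 0.11 ± 0.12 (SE) and was not called, although it passed as a rise with library size alone (0.26).

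NDUFA12 (ENSG00000184752, chromosome 12, 94897055 to 95003770, minus strand), an accessory subunit near the junction of the arms, rose. It was at 59.9, 56.3 and 57.7 CPM in control and at 60.1, 69.2 and 65.9 CPM in knockdown. The groups are separated by a narrow margin, between control replicate 1 and knockdown replicate 1. Its log2 fold change was 0.16 ± 0.05 (SE; adjusted p 0.00627, edgeR's quasi-likelihood test). The call was lost with DESeq2 (0.14), without control replicate 2 (0.14) and without knockdown replicate 2 (0.11).

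In the membrane arm near the matrix arm, 6 of 9 accessory subunits fell and 2 rose. NDUFA8, a twin-cysteine subunit on the intermembrane side, was at 67.0, 69.2 and 71.7 CPM in control and at 39.8, 42.6 and 39.9 CPM in knockdown. No values of the groups came close to each other, and the log2 fold change was -0.77 ± 0.05 (SE). NDUFC2 was at 10.6, 10.9 and 10.1 CPM in control and at 6.49, 6.51 and 5.87 CPM in knockdown, with a log2 fold change of -0.74. NDUFC1, NDUFA10, NDUFA1 and NDUFS5 were at -0.41, -0.39, -0.32 and -0.25, and NDUFA11 was not called at -0.22 ± 0.13 (SE). NDUFA1 (-0.17) and NDUFS5 (-0.10) lost their calls with library size alone.

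The 2 rises in that segment came from members at low levels. NDUFA3 was at 7.13, 5.58 and 5.50 CPM in control and at 7.71, 8.63 and 7.99 CPM in knockdown, a log2 fold change of 0.41 ± 0.14 (SE). Control replicate 1 was the nearest to the knockdown group, and the call was lost without control replicate 3 (0.34). NDUFA13, also known as GRIM-19, was at 1.83, 1.76 and 1.97 CPM in control and at 3.69, 2.01 and 2.47 CPM in knockdown. Knockdown replicate 1 was far above the rest, and without it the log2 fold change went from 0.56 ± 0.24 (SE) to 0.27. The call was also lost with the replicate block (0.53), with DESeq2 (0.53), without a filter (0.55) and without any 1 control library (0.52 to 0.60).

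The distal membrane arm, where the NDUFB subunits lie, had 8 of 11 members lower, and the other 3 (NDUFB1, NDUFB3 and NDUFB8) were not called. Its largest fall was that of NDUFB10, at 37.2, 36.9 and 39.4 CPM in control and at 24.95, 25.04 and 26.38 CPM in knockdown, a log2 fold change of -0.57 ± 0.07 (SE). The groups did not overlap. NDUFB7, a twin-cysteine subunit, was at 62.2, 63.5 and 63.7 CPM in control and at 43.99, 45.90 and 44.82 CPM in knockdown, with a log2 fold change of -0.49. NDUFB9, NDUFB4, NDUFB2, NDUFB6, NDUFB5 and NDUFB11 lay between -0.48 and -0.29. NDUFB1 was at 30.3, 28.97 and 28.1 CPM in control and at 29.8, 27.5 and 31.2 CPM in knockdown. These values overlapped fully, at a log2 fold change of 0.02 ± 0.07 (SE), although NDUFB1 passed as a rise with library size alone (0.17). NDUFB3 was at -0.12 ± 0.08 (SE) and was not called, although it passed without control replicate 3 (-0.20). NDUFB8 was at -0.33 ± 0.18 (SE), not called, with each knockdown value below each control value.

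NDUFAB1 is the mitochondrial acyl carrier protein, which sits in complex I and also serves fatty acid and iron-sulphur cluster synthesis. It was at 66.5, 72.5 and 73.6 CPM in control and at 43.4, 48.9 and 44.4 CPM in knockdown. Its log2 fold change was -0.64 ± 0.06 (SE), and the groups did not overlap.

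Assembly factors differed among themselves. NDUFAF4 (ENSG00000123545, chromosome 6, 96889313 to 96897881, minus strand), which acts with NDUFAF3 on the quinone module, was at 59.7, 56.6 and 61.8 CPM in control and at 35.5, 38.4 and 37.3 CPM in knockdown. The drop was uniform over libraries, at -0.68 ± 0.06 (SE; adjusted p 6.1e-16, edgeR's quasi-likelihood test). Its partner NDUFAF3, which DALRD3 overlaps over 21.7% of exonic bases, fell by 0.26 on the log2 scale, a call lost with library size alone (-0.11). NDUFAF8 was at 65.3, 68.5 and 64.8 CPM in control and at 44.6, 42.6 and 40.2 CPM in knockdown, a log2 fold change of -0.64. It stabilises NDUFAF5, an enzyme that hydroxylates NDUFS7, and NDUFAF5 was at -0.51. Both factors had groups that did not overlap.

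NDUFAF7, a methyltransferase of the quinone module, rose. It was at 19.3, 23.2 and 23.4 CPM in control and at 26.3, 24.8 and 24.5 CPM in knockdown, a log2 fold change of 0.20 ± 0.08 (SE). Control replicate 1 was the lowest, and without it the value was 0.11 and not called. The call was also lost with DESeq2 (0.17), without a filter (0.18) and without knockdown replicate 1 (0.16) or 2 (0.20). NDUFAF1, of the complex that builds the membrane arm, was at 0.15 ± 0.10 (SE), and NDUFAF6 was at -0.19 ± 0.09 (SE), neither called. NDUFAF1 passed as a rise with library size alone (0.30). NDUFAF6 passed with RLE factors (-0.20) and without knockdown replicate 3 (-0.25).

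NDUFAF2 and NDUFA12 are paralogues that act in turn, since NDUFAF2 occupies the site on the assembling enzyme that NDUFA12 takes in the finished one. NDUFAF2 (ENSG00000164182, chromosome 5, 60945129 to 61153037, plus strand) was at 33.8, 31.3 and 37.8 CPM in control and at 21.9, 23.2 and 22.0 CPM in knockdown, a log2 fold change of -0.62 ± 0.07 (SE). It therefore moved in the direction opposite to NDUFA12. The log2 ratio of NDUFA12 to NDUFAF2 was 0.826, 0.846 and 0.610 in control and 1.45, 1.58 and 1.58 in knockdown. Those groups did not overlap, with a mean of 0.761 ± 0.131 against 1.54 ± 0.0738 (SD, n = 3). A two-sided exact permutation test gave p = 0.1, the smallest that 3 against 3 libraries allow. The pair was chosen with earlier results of these data known. The same ratio for NDUFAF3 over NDUFAF4 went from -1.33 ± 0.116 to -0.909 ± 0.143 (exact p = 0.1), and for NDUFAF5 over NDUFAF8 from -1.91 ± 0.104 to -1.78 ± 0.0441 (exact p = 0.2). With 3 ratios tested, adjustment raises each p further, and none reached 0.05.

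**Figure D2:**
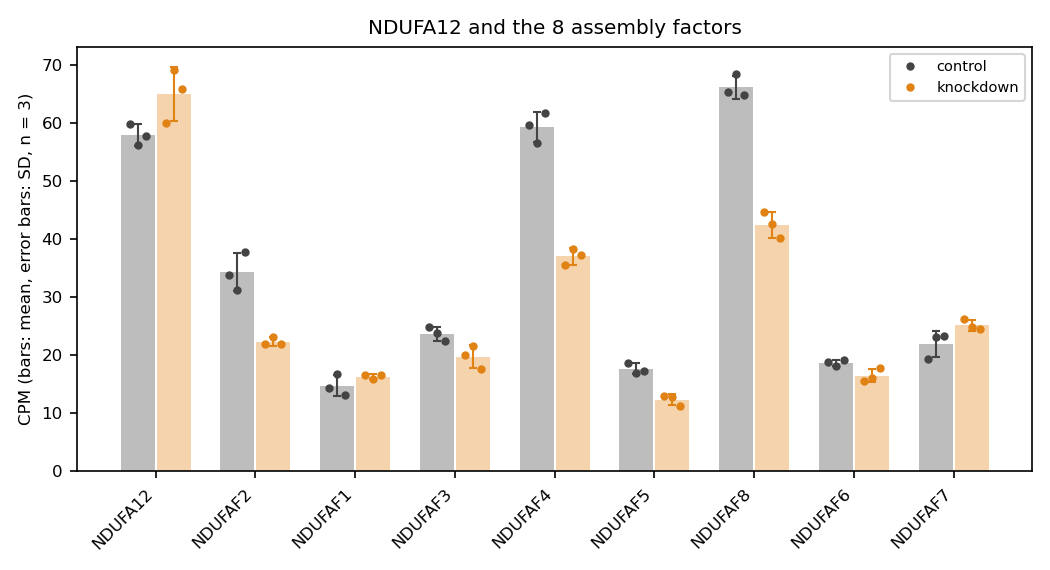
CPM of NDUFA12 and the 8 assembly factors in control and knockdown, as means with SD (n = 3) and 1 point per library. NDUFAF4, NDUFAF8 and NDUFAF2 drop between groups, while NDUFA12 and NDUFAF7 are slightly higher in knockdown.

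Levels were compared between genes as CPM per kilobase of annotated exon. In control they ran from 119 for NDUFB7, 112 for NDUFS5 and 82.1 for NDUFA8 down to 0.685 for NDUFA13, 0.505 for NDUFV2 and 0.297 for NDUFA7. Subunits of 1 complex were thus recorded at levels more than 100-fold apart. NDUFV2 is a core subunit, yet its counts were 49, 33 and 46 in control and 49, 24 and 19 in knockdown. NDUFV2P1, its pseudogene, had 82, 96 and 82 counts in control and 52, 54 and 59 in knockdown, more than the gene itself in every library. Of 20 members with pseudogene rows in the table, NDUFV2 is the 1 whose pseudogenes held more counts than it did. Reads of this pair may be split, so the NDUFV2 value is uncertain.

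Shared exons coincided with low recorded levels. Of 7 members under 10 CPM in control, 6 share over 10% of their exonic bases with another gene in GENCODE release 29, against 19 of all 44. They are NDUFA7, NDUFA9, NDUFA11, NDUFA13, NDUFB8 and NDUFV2, and NDUFA3 is the exception. NDUFB8, with 88 to 143 counts, shares 48.5% with AL133352.1 and HIF1AN, and 33.8% with a gene on its own strand. AL133352.1, which held 0 counts in each library, shares more of these bases than HIF1AN, which held 4156 to 5120. NDUFA7 shares 33.5% of its exonic bases with AC010323.1 and RPS28, and 32.3% with a gene on its own strand. AC010323.1, which held 0 to 2 counts, shares more of these bases than RPS28. RPS28, a ribosomal protein gene, held 2973 to 5322 counts. NDUFA7 itself had 8 to 22 counts, at which no difference was detectable (-0.17 ± 0.52, SE). The part of shared exons in these levels was not tested. Without the 19 members sharing over 10%, 18 of 25 fell, 3 rose and the median was -0.39 on the log2 scale.

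**Figure D3:**
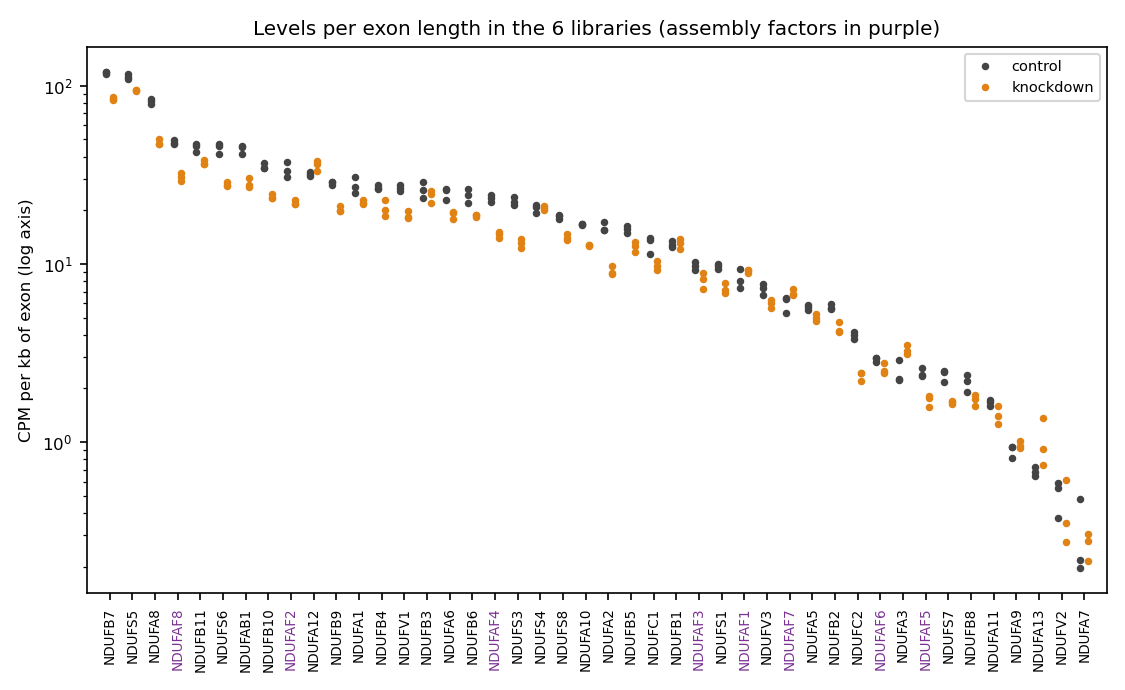
CPM per kilobase of exon on a log axis for all 44 members in order of the control mean, 1 point per library. NDUFB7 and NDUFS5 stand highest at 119 and 112, and NDUFA7 lowest at 0.297.

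Abundance moved with the calls. When all tested genes were cut into 5 equal classes by mean log2 CPM, the share called lower went from 4.67% in the lowest class to 14.5%, 29%, 45.7% and 60.5%. Members called lower numbered 0 of 1, 0 of 4, 8 of 14, 16 of 19 and 6 of 6 in the same order. The median fold change of all genes in the 2 highest classes was -0.08 and -0.21. After a trend on abundance, exon length and GC content was removed across all tested genes, the median was -0.31 over subunits and -0.33 over assembly factors, against -0.06 over all tested genes. NDUFB7 and NDUFS5, the members with the highest levels per kilobase, were then at -0.03 and 0.05.

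**Figure D4:**
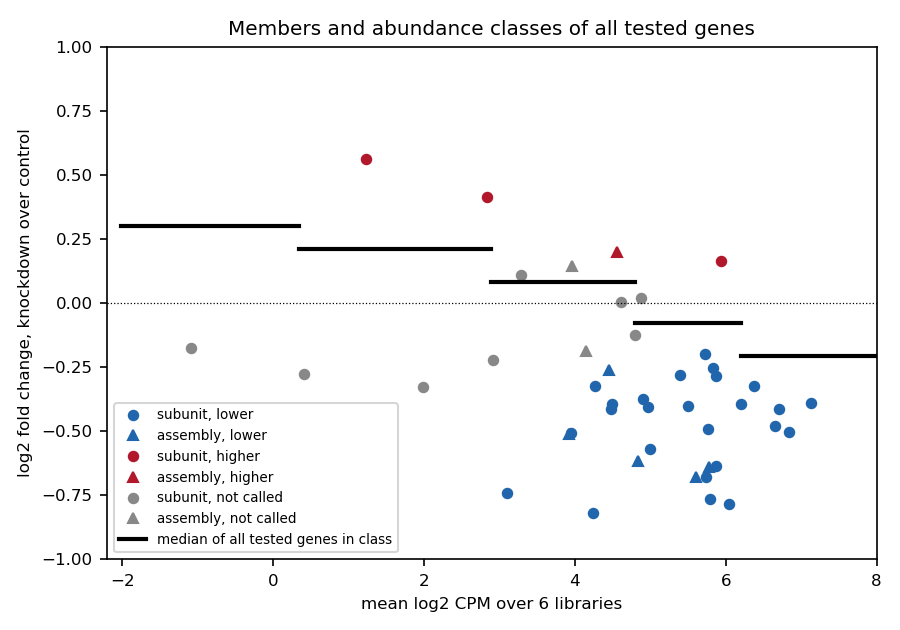
Log2 fold change against mean log2 CPM for the 44 members, with the median of all tested genes in 5 abundance classes as black lines. Most members lie below the line of their class, which falls from 0.30 to -0.21.

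Promoter motifs were searched by exact letters on both strands, as a description only. The NRF1 letters GCATGCGC were in the windows of 8 of 39 members (20.5%), against 3.68% of all 27305 genes with a window and 3.05% of windows. These letters are nearly palindromic, so 1 site can match on both strands, as in NDUFA8. All 8, NDUFA5, NDUFA6, NDUFA8, NDUFAF4, NDUFAF5, NDUFB4, NDUFS6 and NDUFS7, fell, as did 18 of the 31 without the letters, and the medians were -0.51 and -0.32. The ETS letters CCGGAAG, of the kind GABPA binds, were in 7 members (17.9%, against 12.2% of genes and 10.3% of windows), of which 6 fell and NDUFA13 rose. The YY1 letters AAGATGG were in 10 (25.6%, against 7.11% of genes and 5.84% of windows), of which 4 fell and 2, NDUFA12 and NDUFA3, rose. Their median was -0.19, and -0.39 for members without them. NDUFA5, NDUFA6 and NDUFS7 held both the NRF1 and YY1 letters, NDUFAF4 the NRF1 and ETS letters and NDUFAF8 the ETS and YY1 letters. In the same libraries NRF1 itself had a log2 fold change of -0.41, YY1 one of 0.27 and GABPA one of 0.03, the last not called. The part of these factors in the members' values was not tested.

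A 7-base word linked to falls in earlier results of these data, CTATTGA, was in the annotated 3′ UTR of 5 members, NDUFC2, NDUFS1, NDUFA10, NDUFB5 and NDUFA9. That is 11.4% of members and 11.6% of tested protein-coding genes. The median log2 fold change was -0.39 with the word and -0.38 without it.

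Of 12 other assembly factors for complex I, 6 fell and 1 rose, with a median of -0.09. Of all tested genes 30.9% fell and 30.7% rose. Among the falls, DMAC2, at -0.12, kept its call in 9 of 13 alternatives. TMEM70, which serves complex I and ATP synthase, was at -0.98 and shares 11.5% of its exonic bases. TMEM126A rose by 0.20, a call lost with DESeq2 and without control replicate 1, control replicate 2 or knockdown replicate 2 (alternatives from 0.17 to 0.35). Of the factors that work with NDUFAF1, COA1 fell by 0.44 and TIMMDC1, which shares 29.2% of its exonic bases, by 0.27. ACAD9, ECSIT and TMEM126B were at -0.05, 0.02 and -0.07 and were not called. TMEM186 was not called at 0.32, with groups that did not overlap, and passed with upper-quartile factors, with library size alone and without knockdown replicate 2 (alternatives from 0.23 to 0.47). DMAC2, COA1, TIMMDC1, ACAD9, ECSIT, TMEM126B and TMEM186 are named after their values were seen. Of the 7 subunits encoded in mitochondrial DNA, 5 fell and 1 rose, from MT-ND2 at -0.53 to MT-ND6 at 0.18, and their sum was 85.9% of control.

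The other complexes of the chain also fell for the most part. Falls numbered 4 of 4 nuclear genes in complex II, 8 of 9 in complex III, 11 of 11 in complex IV and 15 of 16 in complex V (ATP synthase). The other 2 genes, UQCR10 and ATP5IF1, were not called, and the medians were -0.50, -0.47, -0.47 and -0.46. The share called lower was 30.9% over all tested genes, and 45.7% and 60.5% in the 2 highest abundance classes. Most genes of complexes II to V lay in those 2 classes. Some falls in complexes II to V were unstable: SDHA, UQCRC2, COX6C and ATP5PB lost the call with library size alone. ATP5F1E lost it in 4 of 13 alternatives and ATP5ME in 7, DESeq2 included. UQCR10, at 0.26, passed as a rise in 4 alternatives, and ATP5IF1, at 0.02, in that with library size alone. SDHB, CYC1, COX4I1 and ATP5F1B had the largest falls, at -0.62, -0.89, -0.99 and -1.53. These comparisons use the same libraries, and the difference between complexes was not tested.

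Iron-sulphur clusters, of which complex I holds many, are built by a separate pathway. Of its 12 tested genes 8 fell and 2 rose, with GLRX5, a carrier of the clusters, at -1.71 and ISCA1 at 0.29. Of all tested genes 30.9% fell and 30.7% rose. ISCU, a fall at -0.14, kept its call in 7 of 13 alternatives. HSCB, a rise at 0.26, kept it in 10 and lost it with DESeq2. Of 12 regulators of respiratory genes 6 fell and 4 rose, beside the same shares of all tested genes. Among the rises, PPRC1, at 0.10, kept its call in 6 of 13 alternatives and lost it with DESeq2. TFB2M, which starts transcription of mitochondrial DNA, was at -0.77. PPARGC1A, a coactivator of mitochondrial genes, rose by 0.83 on the log2 scale, with means of 6.38 ± 0.360 CPM in control and 11.4 ± 1.27 CPM in knockdown (SD, n = 3).

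**Figure D5:**
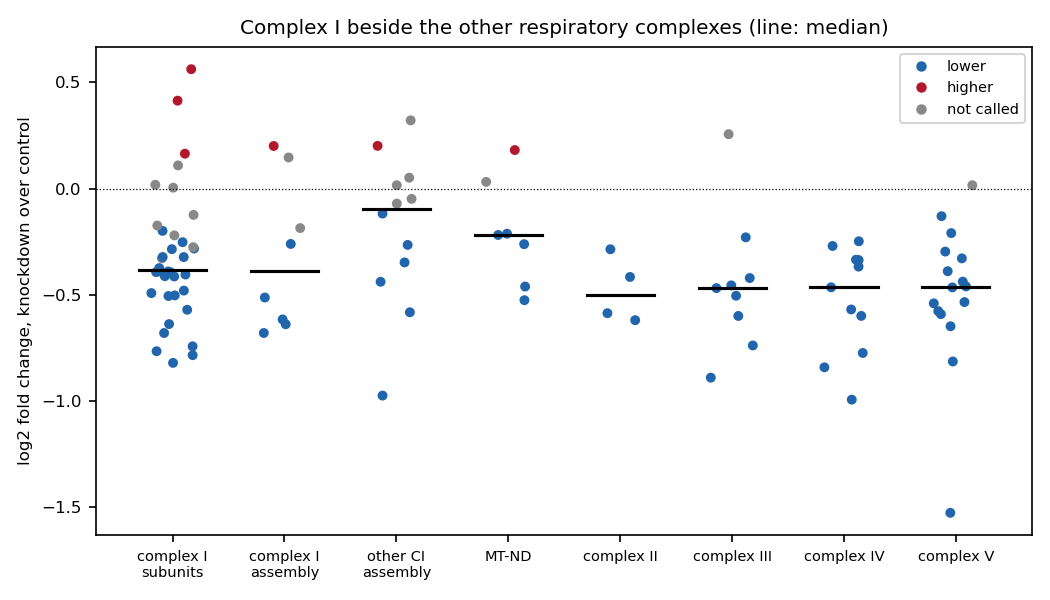
Log2 fold change, knockdown over control, of tested genes of complex I, its other assembly factors, the MT-ND genes and complexes II to V, coloured by call, with the median as a line. The medians of complexes II to V lie between -0.50 and -0.46, and that of the other assembly factors at -0.09.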

How the data were processed

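Whole-number counts for each Ensembl gene were deposited by the authors, unscaled, in a single table with the 6 libraries as columns. The submitters' processing notes list Trim Galore 0.6.6, STAR 2.7.0d, featureCounts 2.0.1, DESeq2 1.30.1 and the hg38 build. Their settings, the annotation release, the use of strand and what was done with multi-mapping reads were not given in the sources used here. Values of overlapping genes, antisense partners and near-identical copies are therefore uncertain. Coordinates, exon lengths and shared exonic bases came from GENCODE release 29 on GRCh38.

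In R 4.3.3 with edgeR 4.0.16, genes were filtered with filterByExpr (minimum count 10) and scaled by TMM. The quasi-likelihood test, with robust estimation, had group as its term. Adjustment followed Benjamini and Hochberg over 17223 genes, and DESeq2 1.42.0 served as an alternative. The code was tested on simulated data, with criteria that were revised after a first one was not met. Of genes changed 2-fold, 70 of 70 were called at a mean count over 100 and 8 of 28 at 100 or less. For changes of 0.5 on the log2 scale these were 67 of 74 and 2 of 23. Other alternatives changed the scaling, the filter, the depth, the replicate block or the libraries included.

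The members and lists were chosen with earlier results of these data known. Values per library are given for the largest falls and rises within each role, and the largest called fall and the largest called rise of each other list are named. Promoters shown are those of the largest fall, the largest rise and the NDUFA12 and NDUFAF2 pair. Those of NDUFA8 and NDUFAF4 were added after the motif search. Protein sequences were not used here.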

Additional observations from a re-analysis of the deposited data

How the results depend on the processing

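Of the 30 members that fell, 25 kept that call in all 13 alternative fits. The other 5 (NDUFA1, NDUFV3, NDUFAF3, NDUFS5 and NDUFA5) lost it with library size alone. No member reversed a call. With library size alone the medians were -0.2288 for subunits and -0.2338 for assembly factors, 7 members were higher, and all genes stood at 6986 higher and 3855 lower, against 5295 and 5317. That scaling leaves out the TMM factors, which were 0.948 ± 0.00674 in control and 1.05 ± 0.00702 in knockdown. The median of all genes, 0.0311, became 0.185 there, 0.140 without a filter and 0.132 with DESeq2, the last 2 over more genes. Members higher numbered 2 without a filter, 1 with DESeq2, and 2 to 4 when 1 library was left out (4 without knockdown replicate 3, otherwise 2). Leaving out members that share over 10% of exonic bases left 18 lower, because fewer genes were counted. Thinning to the smallest library gave 30 lower and 4 higher. The replicate block gave 30 lower and 3 higher (NDUFA13 lost its call). Deviations of same-numbered libraries correlated at -0.000751, -0.00642 and -0.0235, so the numbers are shared but the data do not pair the samples. The 4 rises were less stable: none held in every alternative. Depth limits members under 100 counts, such as NDUFV2 and NDUFA7.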
